A study of Mus musculus with 8 samples.

Results

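Bone marrow retention and homing receptors are the surface proteins that hold a developing B cell in the marrow niche or let it leave for blood and lymphoid organs. The set held 9 genes chosen by symbol: the chemokine receptors Cxcr4, Cxcr5 and Ccr7, the sphingosine 1-phosphate receptors S1pr1 and S1pr4, the receptor antagonist Cd69, the integrin chains Itga4 and Itgb1, and the hyaluronan receptor Cd44. All 9 were found among the 55487 genes of the count table, and all 9 were among the 18884 genes with enough counts to be tested. The mouse cells were labelled pro-B cells, the B lineage precursors of the bone marrow that rearrange their heavy chain genes, and their RNA was sequenced. There were 4 libraries of genotype CD25_KO, titled KO1 to KO4, and 4 of genotype WT, titled WT1 to WT4. Il2ra encodes CD25, a chain that raises the affinity of the receptor for interleukin-2. The sources used here do not give the deleted allele, the strain, the age or sex of the mice, how the cells were sorted, or whether each library came from its own animal, and the p-values therefore speak only of how much these libraries varied. The single comparison the design allows is of the CD25_KO with the WT libraries.

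As background, CXCR4 binds the chemokine CXCL12 made by marrow stromal cells, and this attraction keeps B cell precursors close to stroma. The paired chains of integrin α4 and integrin β1, encoded by Itga4 and Itgb1, bind VCAM-1 on the same stromal cells, and CD44 binds hyaluronan in the matrix. Sphingosine 1-phosphate is abundant in blood and draws cells out of the marrow through S1PR1, while CD69 binds S1PR1 and removes it from the cell surface. CXCR5 and CCR7 guide mature B cells into follicles and toward T cell zones of lymphoid organs.

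The targeted gene did not settle the labels. The wild type mean of Il2ra was 193 ± 35.9 CPM and that of the CD25_KO libraries 181 ± 43.1 CPM (SD, n = 4 each), where CPM is a count relative to the scaled library total. Counts were summed over all exons, so a missing exon would not be seen, and the group is called labelled knockout below. The B lineage gene Rag1 (205 to 389 CPM) was present in all 8 libraries, as were the early markers Dntt (16.1 to 119 CPM) and Igll1 (38.8 to 206 CPM), while Kit, also a marker of the pro-B stage, had 0.701 to 3.20 CPM. Igll1 averaged 163 ± 55.4 CPM in wild type and 86.5 ± 51.3 CPM among the CD25_KO libraries (edgeR adjusted p = 0.393). Ebf1, another B lineage gene, went the other way, with 575 ± 30.0 and 761 ± 144 CPM (edgeR adjusted p = 0.391). Of 14 B lineage markers tested, 5 had higher and 9 lower values in the labelled knockout, and 0 passed the adjusted edgeR test. Ms4a1, a marker of later B cells, had 596 to 838 CPM. Library totals ran from 43974037 to 57988772 counts. Of the libraries, WT2, KO2 and KO4 held 483 to 505 CPM of Y-linked counts and the others at most 2.79 CPM. Between the groups, summed markers of natural killer cells were 37.1 to 50.1 CPM in wild type and 9.54 to 34.4 CPM in the labelled knockout, and those of erythroid cells 2898 to 8643 and 266 to 2279 CPM. The summed immediate early genes were 1967 to 2321 CPM in wild type and 2356 to 4137 CPM in the labelled knockout. None of these 3 sums overlapped between the groups (adjusted p = 0.09523 over 10 sums by a two-sided exact permutation test). The raw p of that permutation test, 0.02857, is the lowest possible with 4 against 4. Abundant genes weigh most in such sums. The mean log2 deviation of each list's tested genes from their own means did overlap between the groups. For immediate early genes it was 0.12 in WT4 and -0.08 in KO2. For natural killer markers it was 0.19 in WT4 and 0.40 in KO4, and for erythroid markers 0.21 in WT2 and 0.30 in KO4. KO1 and KO3 had the lowest sums of natural killer, neutrophil, monocyte and erythroid markers. In bulk RNA, fewer cells of a type and less RNA per cell cannot be told apart. Markers of T cells, which also express Ccr7, S1pr1, Cd69 and Cd44, summed to 3.39 to 8.92 CPM, with 7 of 11 under 1 CPM in all 8 libraries.

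No gene of the set was called different between the groups. Each gene's fold change is the labelled knockout over wild type on the log2 scale, taken from the quasi-likelihood fit of edgeR and adjusted over all 18884 genes by the Benjamini-Hochberg method. At an adjusted p under 0.05 the test called 0 of the 9 genes, where 0 of 18884 genes (0.0%) were called in all. DESeq2 and limma-voom also called 0 of the 9. At an unadjusted p under 0.05 there were 0 of 9, against 2388 of 18884 genes (12.6%), and in 0 of 9 did the groups' values not overlap, against 1283 genes (6.79%). Cd69, S1pr4, S1pr1 and Ccr7 had higher and Itga4, Cxcr5, Cd44, Cxcr4 and Itgb1 lower mean log2 values in the labelled knockout, but in Ccr7, Cxcr4, Cxcr5, Itgb1, S1pr1 and S1pr4 that direction turned under at least 1 other setting. For the 9 genes the median log2 fold change was -0.04, beside 0.00 over all genes tested. The 95% interval lay within 2-fold either way for 8 of the 9 genes, Cd69 being the exception. The same held for 82.9% of the 10296 genes averaging 5 CPM or more.

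**Figure D1:**
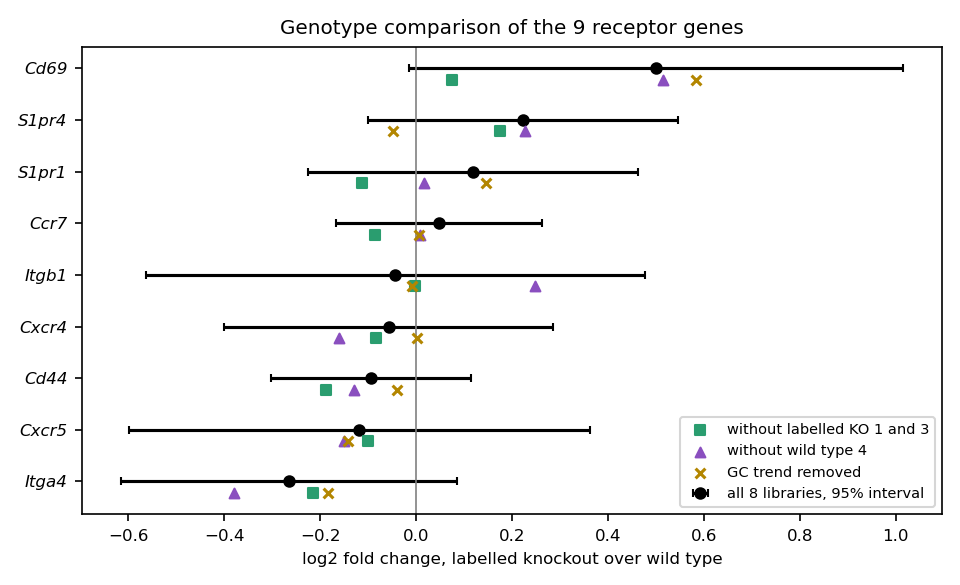
Log2 fold change of each of the 9 genes, labelled knockout over wild type (x axis, log2 units), as black points with bars for the 95% interval over all 8 libraries. Squares, triangles and crosses are the values without KO1 and KO3, without WT4 and with the GC trend removed. Every interval crosses 0, and the interval of Cd69, from -0.02 to 1.02, reaches farthest.

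Cxcr4 is the receptor that ties B cell precursors to CXCL12 on stroma. Its gene (ENSMUSG00000045382.6, chromosome 1, 128588199 to 128592293 on the minus strand of GRCm38) had 104, 92.1, 111 and 73.8 CPM in WT1 to WT4. In KO1 to KO4 it had 78.2, 80.7, 106 and 101 CPM. The lowest library was wild type and the highest was wild type too, so the labelled knockout values lay inside the wild type range. The log2 fold change was -0.06 ± 0.15 (SE; 95% interval from -0.40 to 0.29; edgeR adjusted p = 0.890). An interval of this width leaves a fold from 0.758 to 1.22.

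Ccr7, the receptor for CCL19 and CCL21, had the highest level of the set. The gene (ENSMUSG00000037944.8, chromosome 11, 99144196 to 99155077, minus strand) had 219, 211, 207 and 189 CPM in WT1 to WT4. The labelled knockout libraries had 233, 189, 227 and 205 CPM. The 8 values stayed within 1.23-fold of each other, and KO1 and KO3 held the highest ones. The groups overlapped, with a log2 fold change of 0.05 ± 0.10 (SE; 95% interval from -0.17 to 0.26; edgeR adjusted p = 0.847).

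Cxcr5, the receptor for the follicular chemokine CXCL13, was the least abundant. The gene (ENSMUSG00000047880.15, chromosome 9, 44511787 to 44561877, minus strand) had 22.2, 13.1, 11.7 and 14.2 CPM in WT1 to WT4, and 16.1, 15.3, 11.5 and 13.5 CPM in KO1 to KO4. WT1 stood above the other 7 libraries, which lay between 11.5 and 16.1 CPM. Its log2 fold change was -0.12 ± 0.22 (SE; 95% interval from -0.60 to 0.36; edgeR adjusted p = 0.828). Without WT1 the value was 0.12, the other way. Its exons share 110 of 3332 bases (3.30%) with Bcl9l, which had 3.32 CPM, and no strand setting is recorded for the counting.

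**Figure D2:**
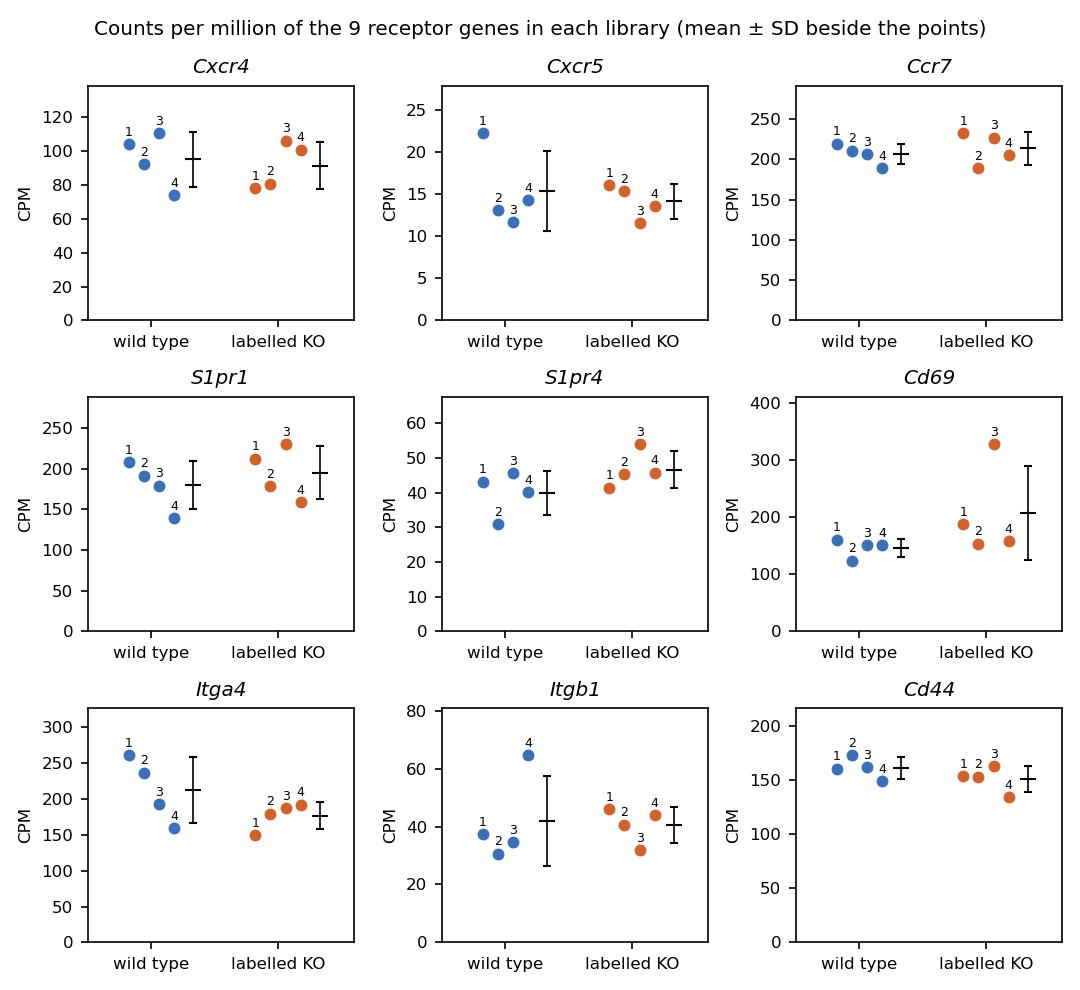
Level of each of the 9 genes (y axis, CPM; one panel a gene, each with its own axis from 0) in the 4 wild type and the 4 labelled knockout libraries, numbered points for libraries and a black mark for the group mean with its SD. The groups overlap in every panel, and KO3 stands alone in Cd69, at 329 CPM.

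S1pr1 is the receptor through which lymphocytes follow sphingosine 1-phosphate out of tissue. The gene (ENSMUSG00000045092.8, chromosome 3, 115710433 to 115715072, minus strand) had 208, 192, 179 and 139 CPM in WT1 to WT4. It had 212, 178, 230.4 and 158 CPM in KO1 to KO4. KO1 and KO3 were the highest of the 8 libraries and WT4 the lowest, and the groups overlapped. The log2 fold change was 0.12 ± 0.15 (SE; 95% interval from -0.22 to 0.46; edgeR adjusted p = 0.751). With KO1 and KO3 left out together it was -0.11.

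S1pr4 encodes a further receptor of the same lipid, found mainly on blood cells. The gene (ENSMUSG00000044199.6, chromosome 10, 81497747 to 81500132, minus strand) had 43.2, 30.9, 45.6 and 40.2 CPM in WT1 to WT4 and 41.4, 45.3, 54.1 and 45.8 CPM in KO1 to KO4. WT2 was the lowest and KO3 the highest library. Its log2 fold change was 0.22 ± 0.14 (SE; 95% interval from -0.10 to 0.55; edgeR adjusted p = 0.512). By the longest annotated transcript of each gene, S1pr4 was the most GC-rich of the set, at 59.3% GC. With the GC trend of each library removed its log2 fold change was -0.05.

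Cd69, the early activation antigen that takes S1PR1 off the surface, had the widest spread. The gene (ENSMUSG00000030156.5, chromosome 6, 129267325 to 129275436, minus strand) had 161, 124, 151 and 151 CPM in WT1 to WT4. In KO1 to KO4 it had 188, 154, 329 and 158 CPM. KO3 stood far above the other 7 libraries and KO1 was second. KO2 and KO4 fell between the lower wild type libraries and WT1, so the groups overlapped. The log2 fold change was 0.50 ± 0.23 (SE; 95% interval from -0.02 to 1.02; edgeR adjusted p = 0.397). Without KO3 it was 0.19, and without both KO1 and KO3 it was 0.07.

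The high Cd69 libraries were also those with the highest summed immediate early genes, a set of rapidly induced transcription factors and feedback genes. That sum was 2977 CPM in KO1 and 4137 CPM in KO3, against 2356 and 2472 CPM in KO2 and KO4. Of the 18 immediate early genes tested, 17 had higher and 1 a lower value in the labelled knockout, and their median log2 fold change was 0.85 beside 0.00 over all genes. Of them 7 had an unadjusted p under 0.05, all higher (background 5.53%), while 0 passed the adjusted edgeR test. In 0 of the 18 did the groups' values not overlap, against 2.62% of all genes on the higher and 4.17% on the lower side. The direction of this list was known from earlier results of these libraries, so it is not independent evidence. Fos, a subunit of the AP-1 factor chosen after its values were seen, had 8.99 to 23.5 CPM in wild type. In KO1 to KO4 it had 16.9, 15.3, 160.1 and 11.3 CPM, so KO3 alone was high. Zfp36, an mRNA decay factor chosen in the same way, had 1146 CPM in KO3 and 329 to 517 CPM in the other 7. The part of the immediate early genes in the Cd69 values was not tested.

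**Figure D3:**
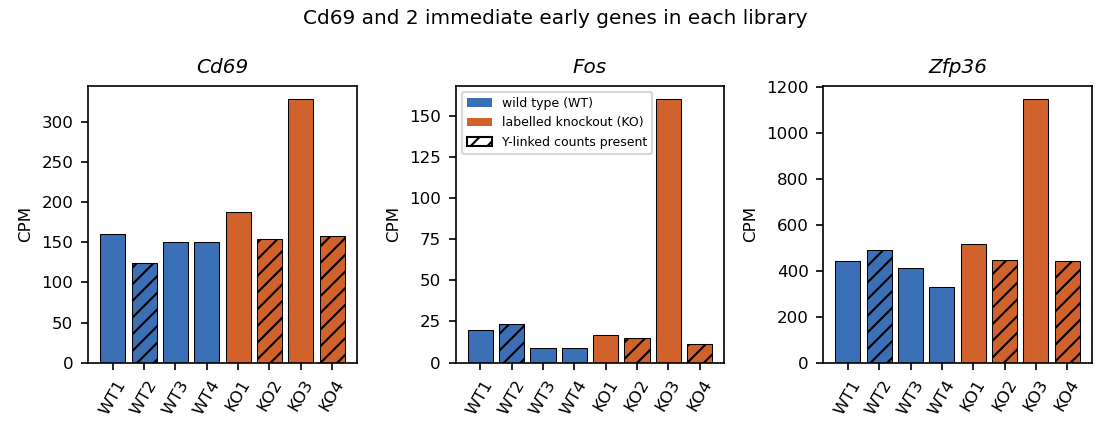
Level of Cd69, Fos and Zfp36 (y axes, CPM from 0; a bar for each library, coloured by group) with hatching where Y-linked counts were present. KO3 has the highest bar in every panel, at 329, 160.1 and 1146 CPM.

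Within the labelled knockout, Y-linked counts were present in KO2 and KO4 and absent or near 0 in KO1 and KO3. This is the same split as that of Cd69 and the summed immediate early genes, so within that group the 2 cannot be told apart. In wild type only WT2 held Y-linked counts. In libraries without them (3 wild type, 2 labelled knockout) the log2 ratio of mean Cd69 was 0.75, and in libraries with them (1 wild type, 2 labelled knockout) it was 0.33. Cd69 was the 1 gene of the 9 that was higher in the labelled knockout with no overlap within both kinds of library, as were 9.27% of all genes tested. In 0 of the 9 were the labelled knockout values lower with no overlap in both, against 14.6% of all genes. With Y-linked counts as a term in the model the Cd69 log2 fold change was 0.60 (edgeR adjusted p = 0.08789). S1pr1 had ratios of 0.34 and -0.19, Ccr7 of 0.16 and -0.10, and Itgb1 of -0.23 and 0.46 in libraries without and with Y-linked counts. Cxcr5 had -0.22 and 0.14 and Cd44 0.01 and -0.27, so in these 5 genes the directions differed. In S1pr1 and Ccr7 the groups did not overlap within either kind, in opposite directions. The share of all genes with that pattern was not counted, so it is given as a description only. Itga4 had -0.28 and -0.35, S1pr4 had 0.15 and 0.56, and Cxcr4 had -0.06 and -0.02. With a single wild type library carrying Y-linked counts, no test was made within these groups.

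The promoters of the integrin pair are shown because both chains form a single receptor, whose levels follow. RefSeq's table (GRCm38.p6) held 5 of the 9 genes. The 250 bases before each start are printed 5′ to 3′ on the gene's strand, with capitals for the GC box GGGCGG (or its reverse complement). The Itga4 window is chr2:79255176-79255425 on the plus strand and the Itgb1 window chr8:128685404-128685653 on the plus strand.
Itga4: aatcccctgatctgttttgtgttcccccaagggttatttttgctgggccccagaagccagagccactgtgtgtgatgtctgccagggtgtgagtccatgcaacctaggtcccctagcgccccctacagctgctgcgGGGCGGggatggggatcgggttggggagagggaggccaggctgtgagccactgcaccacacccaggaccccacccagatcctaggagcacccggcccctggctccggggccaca
Itgb1: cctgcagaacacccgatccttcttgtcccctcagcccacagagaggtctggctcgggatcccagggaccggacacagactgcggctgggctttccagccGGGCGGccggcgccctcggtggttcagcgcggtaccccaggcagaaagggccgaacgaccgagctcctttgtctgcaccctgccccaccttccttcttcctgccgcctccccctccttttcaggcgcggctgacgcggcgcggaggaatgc
Both windows hold 1 GC box, as 32.7% of the 32851 promoters of that length hold at least 1. The Itga4 window has 6 CpG and the Itgb1 window 21, with 64.0% and 68.0% GC. The E box CANNTG, searched on both strands and held by 66.2% of promoters, occurs 1 time in the Itga4 window and 0 times in that of Itgb1. These matches describe letters only.

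Itga4, the α4 chain that pairs with β1 to bind VCAM-1, had the lowest fold change of the set, which did not pass the test. The gene (ENSMUSG00000027009.18, chromosome 2, 79255426 to 79333123, plus strand) had 262, 237, 193 and 159 CPM in WT1 to WT4. In KO1 to KO4 it had 149, 179, 187 and 192 CPM. WT1 and WT2 lay above all labelled knockout libraries, WT3 just above them, and WT4 among them. The log2 fold change was -0.27 ± 0.16 (SE; 95% interval from -0.62 to 0.09; edgeR adjusted p = 0.480). With 1 library left out it ran from -0.15 without WT1 (adjusted p = 0.720 by edgeR) and -0.17 without WT2 to -0.38 without WT4 (adjusted p = 0.138 by edgeR). Its exons share 1124 of 13978 bases (8.04%) with Cerkl, which had 5.59 CPM.

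Itgb1 encodes the β1 chain, shared by many integrins. The gene (ENSMUSG00000025809.15, chromosome 8, 128685654 to 128733200, plus strand) had 37.4, 30.6, 34.7 and 64.7 CPM in WT1 to WT4 and 46.1, 40.6, 32.0 and 43.9 CPM in KO1 to KO4. WT4 was the highest library and the other wild type libraries were among the lowest. Its log2 fold change of -0.04 ± 0.23 (SE; 95% interval from -0.56 to 0.48; edgeR adjusted p = 0.949) became 0.25 without WT4. WT4 was thus the lowest wild type library for Itga4 and the highest for Itgb1. It also had the highest erythroid marker sum, 8643 CPM, and whether other cells have a part in its Itgb1 level was not tested.

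Cd44, which binds hyaluronan and is raised on activated lymphocytes, was the steadiest gene with Ccr7. The gene (ENSMUSG00000005087.17, chromosome 2, 102811141 to 102901665, minus strand) had 160.1, 173, 162 and 149 CPM in WT1 to WT4. It had 153, 153, 162 and 134 CPM in KO1 to KO4. WT2 was highest and KO4 lowest, with the groups overlapping. The log2 fold change was -0.09 ± 0.09 (SE; 95% interval from -0.30 to 0.11; edgeR adjusted p = 0.663).

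Levels of different genes were compared as CPM per kilobase of exon, averaged over the 8 libraries. The length held every annotated exon base of a gene, whichever transcripts the cells made, so the order depends on the annotation. Ccr7 led with 106, followed by S1pr1 with 61.5 and Cxcr4 with 51.6 CPM per kilobase. Cd69 (27.2), Cd44 (23.0), S1pr4 (18.2), Itga4 (13.9) and Itgb1 (10.1) came next, and Cxcr5 was last with 4.42 CPM per kilobase. Among neighbours in this order, the library ranges did not overlap between Ccr7 and S1pr1 or between Itgb1 and Cxcr5, while all other neighbours overlapped. Among the genes tested these levels stood from the 58.2nd percentile (Cxcr5) to the 96.7th (Ccr7). The α4 and β1 chains, at 195 and 41.2 CPM, were closer per annotated length, at 13.9 and 10.1 CPM per kilobase. The annotated exons of Itga4 cover 13978 bases and those of Itgb1 4081.

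**Figure D4:**
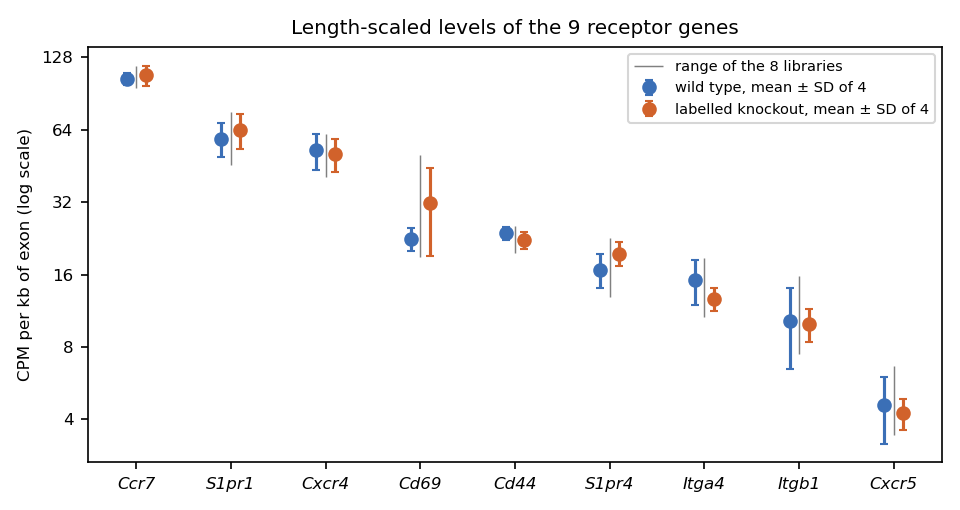
Level of each gene per kilobase of exon (CPM per kilobase, log axis) with genes ordered by their mean. Coloured points and bars are the mean and SD of the 4 libraries of a group, and grey lines the range of all 8. The grey lines of Ccr7, at 106 on average, and Cxcr5, at 4.42, do not reach those of their neighbours.

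The genes also differed in how steady they were. The coefficient of variation over the 8 libraries was 7.48% for Cd44 and 7.60% for Ccr7. S1pr4 (15.1%), Cxcr4 (15.2%), S1pr1 (16.0%) and Itga4 (19.3%) lay near the median of 16.7% for the 10296 genes with at least 5 CPM. Cxcr5 (23.4%), Itgb1 (26.5%) and Cd69 (36.1%) varied most.

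Profiles were compared by the root mean square difference of log2 CPM deviations over the 8 libraries, where a small value means that 2 genes moved alike or that both hardly varied. Within the set Ccr7 and Cd44 had the smallest difference (0.120), but each deviated by only 0.103 on this measure. Their deviations differed most in KO4 (-0.03 and -0.22), and also in KO1, WT2 and KO2. Ccr7 and S1pr1 differed by 0.147, with own deviations of 0.103 and 0.222, while Cd69 and Itgb1 were farthest apart (0.555). Itga4 and Itgb1, chains of a single receptor, differed by 0.521, close to the farthest pair. Cd69 and its binding partner S1pr1 differed by 0.321. Among 8673 other genes with at least 5 CPM the profile nearest to S1pr1 was that of Cd22 (0.0403), which encodes an inhibitory receptor of B cells. Its mean level was 229 CPM in the wild type libraries and 242 CPM in the labelled knockout. Second to it came Plekhm3 (0.0501). Nearest to Cxcr4 were Lynx1 (0.0794) and Mief1 (0.0917), to Ccr7 Dus2 (0.0325) and Cdc42se2 (0.0351), and to Cxcr5 Tmtc4 (0.0885) and Ncoa7 (0.111). Nearest to S1pr4 were Sfi1 (0.0350) and Mapk8ip3 (0.0354), and to Cd69 Zfp516 (0.0789) and Ralgps1 (0.108). For the adhesion genes they were Cep97 (0.0575) and Cul4b (0.0663) for Itga4, Kmt5a (0.0894) and Cep76 (0.0989) for Itgb1, and Ube2w (0.0443) and Cflar (0.0451) for Cd44. These are the smallest of many differences, given as a description.

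**Figure D5:**
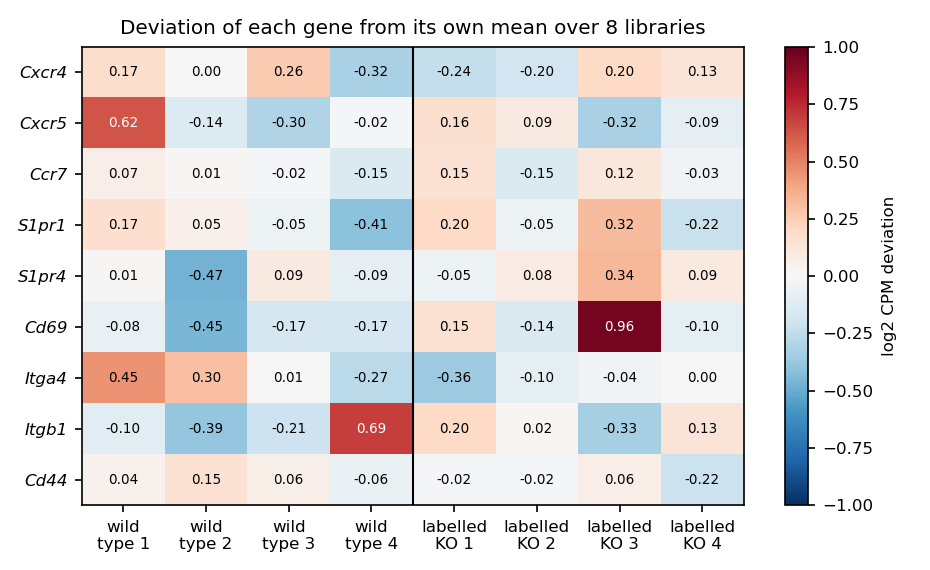
Deviation of each gene's log2 CPM from its own mean over the 8 libraries (colour and printed value, log2 units), genes in rows and libraries in columns, wild type first. KO3 is high for Cd69 and WT4 is high for Itgb1, while every Ccr7 and Cd44 value lies between -0.22 and 0.15.

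Of 13 ligand genes of these receptors 6 had enough counts to be tested. Cxcl13, Ccl19 and Ccl21a, ligands of CXCR5 and CCR7, reached at most 0.0176, 0.141 and 0.0446 CPM. Stromal Cxcl12 had 0.541 to 10.8 CPM and Vcam1, the counter-receptor of α4β1, 1.14 to 14 CPM. Among the 6 tested, 1 had a higher and 5 a lower value in the labelled knockout, and their median log2 fold change was -0.36. None of the 6 passed the adjusted edgeR test. Hmgb1, a chromatin protein that also forms a complex with CXCL12 outside the cell, averaged 3477 ± 211 CPM in the wild type libraries and 2579 ± 604 CPM in the labelled knockout. It was the 1 ligand gene with an unadjusted p under 0.05 (lower side, background 7.11%), and the 1 whose groups did not overlap (background 4.17%). Mif, a ligand of CXCR4 and CD74, had 113 ± 18.3 and 96.7 ± 8.05 CPM, and Spp1, a ligand of CD44 and integrins, 11.6 ± 1.07 and 8.48 ± 2.52 CPM (SD, n = 4 each).

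Of 19 other chemoattractant receptors tested, 10 had higher and 9 lower values, with a median log2 fold change of 0.03. None passed the adjusted edgeR test. Cnr2, the cannabinoid receptor of B cells, had 86.2 ± 8.14 and 101 ± 12.6 CPM, and Gpr18 had 104 ± 10.7 and 96.0 ± 4.73 CPM.

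Of 11 other genes of the sphingosine 1-phosphate system, 9 had higher and 2 lower values, with a median log2 fold change of 0.10. Plpp3, a lipid phosphate phosphatase, was the 1 with an unadjusted p under 0.05 (higher side, background 5.53%), at 1.85 ± 0.559 CPM in the wild type libraries and 3.27 ± 1.40 CPM in the labelled knockout. Its log2 fold change of 0.82 became 0.52 without KO1, and none of the 11 passed the adjusted edgeR test. Sgpp1, a phosphatase of the lipid, had 7.63 ± 1.44 and 9.82 ± 1.61 CPM. Sgpl1, the lyase that degrades it, had 96.4 ± 11.9 and 105 ± 9.16 CPM, and Sphk2, a kinase that makes it, 46.8 ± 10.8 and 50.3 ± 9.28 CPM (SD, n = 4 each).

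Genes that couple these receptors to G proteins or desensitise them had higher values in 18 of 22 cases, with a median log2 fold change of 0.20 beside 0.00 over all genes. Of them 5 had an unadjusted p under 0.05, all higher, and 2 had groups that did not overlap (background 5.53% and 2.62%), while 0 passed the adjusted edgeR test. Rgs19, which shortens Gi signalling, had 122, 111, 130.3 and 126 CPM in WT1 to WT4. It had 159, 149, 176 and 143 CPM in KO1 to KO4, all above wild type. Its log2 fold change was 0.36 ± 0.10 (SE; edgeR adjusted p = 0.391). Rgs14, of the same family, had 54.2 ± 7.50 and 69.0 ± 6.32 CPM, also without overlap. The most abundant genes of the list per kilobase, Rgs2 (877 ± 73.4 and 918 ± 139 CPM) and Gnai3 (239.8 ± 75.5 and 299 ± 26.7 CPM), overlapped between the groups.

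Of 12 regulators of homing genes, 11 had higher values, with a median log2 fold change of 0.38. There were 4 with an unadjusted p under 0.05 and 2 without overlap, all higher (background 5.53% and 2.62%), and 0 past the adjusted edgeR test. Zfp36l2, an mRNA decay factor, averaged 27.6 ± 4.41 CPM in the wild type libraries and 38.2 ± 4.16 CPM in the labelled knockout. Foxo1, an activator of homing receptor genes in lymphocytes, had 85.1, 81.5, 82.7 and 77.6 CPM in WT1 to WT4 and 129, 97.0, 136 and 85.9 CPM in KO1 to KO4. Its groups did not overlap, and KO1 and KO3 were highest. Klf2, an activator of S1pr1 in lymphocytes, chosen after its values were seen, had 17.5 to 21.1 CPM in wild type and 34.7, 24.9, 46.3 and 20.9 CPM in KO1 to KO4. KO1 and KO3 were again highest and KO4 lay inside the wild type range. Bach2 (372 ± 35.7 and 471 ± 109 CPM) and Ets1 (266 ± 55.9 and 324 ± 43.0 CPM) overlapped between the groups.

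Of 19 other integrin genes, 11 had higher and 8 lower values, with a median log2 fold change of 0.04. Itga9, whose product pairs with β1, had 19.8 ± 2.45 and 26.4 ± 4.33 CPM. Itgb3, the β chain of the vitronectin receptor, had 23.8, 19.8, 25.1 and 24.7 CPM in WT1 to WT4 and 28.4, 28.4, 41.0 and 26.7 CPM in KO1 to KO4, with no overlap. These were the 2 with an unadjusted p under 0.05, both on the higher side (background 5.53%), and Itgb3 was the 1 without overlap (background 2.62% higher). Itgb2, the β chain of LFA-1, had 117 ± 15.7 and 128 ± 4.64 CPM. None passed the adjusted edgeR test.

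Of 34 genes of integrin activation and cell migration, 19 had higher and 15 lower values, with a median log2 fold change of 0.04. Of them 5 had an unadjusted p under 0.05, all higher (background 5.53%). The groups did not overlap in 3 on the higher and 1 on the lower side (background 2.62% and 4.17%), and 0 passed the adjusted edgeR test. Ptk2b encodes a kinase that acts downstream of chemokine receptors and integrins. It had 200.2, 143, 179 and 181 CPM in WT1 to WT4 and 270.4, 215, 338 and 231 CPM in KO1 to KO4. The groups did not overlap, and KO3 and KO1 were highest. Its log2 fold change was 0.59 ± 0.16 (SE; edgeR adjusted p = 0.391). Cyth1, a regulator of integrin adhesion, averaged 334 ± 97.3 and 501 ± 38.1 CPM with no overlap. Its log2 fold change of 0.59 ± 0.19 became 0.77 without WT4 (edgeR adjusted p = 0.04927), a fit that called 363 of 19506 genes. The actin regulators Coro1a (2057 ± 162 and 1994 ± 61.8 CPM) and Rac2 (1329.8 ± 112 and 1325 ± 80.2 CPM) had log2 fold changes of -0.04 and -0.01.

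Of 25 other adhesion molecules and CD44 partners, 13 had higher and 12 lower values, with a median log2 fold change of 0.03. Of these, 3 had an unadjusted p under 0.05 on the higher and 1 on the lower side (background 5.53% and 7.11%), and 0 passed the adjusted edgeR test with all libraries. Adam10, a protease that sheds CD44 and other adhesion proteins, had 332, 251, 286 and 392 CPM in WT1 to WT4 and 443, 387, 489 and 469 CPM in KO1 to KO4. Only WT4 reached into the labelled knockout range, and without it the log2 fold change went from 0.50 to 0.63 (edgeR adjusted p = 0.04927). That was the lowest adjusted p of the fit without WT4, shared with Cyth1, and 363 of 19506 genes were called there. Alcam had 0.948 ± 0.188 and 1.68 ± 0.762 CPM, near the floor. Cd24a, an early B cell antigen, had 2407 ± 161 and 2057 ± 251 CPM, and Cd74, a partner of CD44, 986 ± 84.1 and 1152 ± 204 CPM (SD, n = 4 each).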

How the data were processed

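RNA of 8 libraries labelled as pro-B cells was measured, 4 of each genotype. Trizol extraction and a SMARTER library kit were used, per the labels' protocols. The authors deposited raw counts of fragments per gene. Per the file headers these came from featureCounts 2.0.1 in paired mode over GENCODE M25 exons, counting every alignment of a multi-mapping fragment; the other deposited value, exon length, served as the length for levels per kilobase. The build was mm10 and the tools included GATK 4.1.9.0 and STAR 2.7.7a, per the submitters' processing notes. Names came from GENCODE M21: 55227 identifiers matched and 260 did not. No library looked like a copy of another: among 12 within-group pairs the smallest chi-square was 29.5 for each degree of freedom.

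Counts were filtered with filterByExpr, scaled with TMM and tested with edgeR 4.0.16 in R 4.3.3 (robust glmQLFit, two-sided glmQLFTest, genotype as the only term, Benjamini-Hochberg adjustment over 18884 genes at 0.05). The method was tested on simulated counts. SEs were derived from the F value. Depth ran from 43974037 to 57988772 counts. Alternatives were other scalings and filters, a replicate block, leaving out libraries, DESeq2 1.42.0, limma-voom (limma 3.58.1), a Y-linked term and a GC trend removed. Genes named are the 9 receptors, in each list the 2 with the smallest p and the 2 highest per kilobase with at least 1 CPM, the 2 nearest profiles per receptor, and Il2ra. Outside this rule, some genes are named after their values were seen. They are Fos, Zfp36 and Klf2, the B lineage genes Rag1, Dntt, Igll1, Ebf1, Kit and Ms4a1, and the ligands Cxcl12, Vcam1, Cxcl13, Ccl19 and Ccl21a. The members and lists were chosen with earlier results of these data known. Some genes that this rule names are not reported here.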

Additional observations from a re-analysis of the deposited data

Results flagged for a closer look

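Of 82 groups of 4 libraries examined, 5 held a library set apart from the other 3 by more than Dixon's 95% critical value, where chance gives about 1 in 20. None was one of the 9 receptors. Fos and Zfp36 were chosen after their KO3 values were seen, so their 2 do not count toward that comparison with chance. Itgb3 and Alcam were named for the smallest p of their lists in these same libraries. The count of 5 therefore cannot be weighed against the chance rate. In the labelled knockout, KO3 stood apart for Fos at 160 CPM (ratio of gap to range 0.963), for Zfp36 at 1146 CPM (0.895) and for Itgb3 at 41.0 CPM (0.877). KO1 stood apart for Alcam at 2.83 CPM (0.931). In wild type, WT2 stood apart for Cd24a at 2648 CPM (0.895).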

How the results depend on the processing

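None of the 9 receptors was called under any of 19 other settings. Over all genes the count called was 0 with all libraries, 0 to 363 with a replicate left out (363 without WT4: 358 higher, 5 lower, among them Cyth1 at 0.77 and Adam10 at 0.63, adjusted p = 0.04927) and 6 by DESeq2 (3 higher, 3 lower). Nothing in the labels says that numbers shared in the titles pair the libraries. Deviations of same-numbered libraries correlated at 0.098, 0.321, 0.196 and -0.107 for numbers 1 to 4. Those of differently numbered libraries correlated at -0.270 to 0.173. So few libraries cannot settle whether they were paired. With the replicate block 0 genes were called, 3057 had an unadjusted p under 0.05 (2388 without the block), Cd69 was 0.43 and Itgb1 0.0070 on the log2 scale. By CPM in place of CPM per kilobase, 5 of the 9 kept their rank. Log2 fold changes that turned their direction were, with upper quartile factors (which moved the median of all genes to -0.09), Ccr7 at -0.0487 and Rgs2 at -0.0292. They were Rac2 at 0.0336 without a filter and 0.0136 with a stricter one. With KO1 and KO3 out they were Ccr7 -0.0856, S1pr1 -0.112, Rgs2 -0.123 and Fos -0.233, and the count at an unadjusted p under 0.05 was 497. By limma-voom they were Itgb1 0.161, Sphk2 -0.0218 and Rgs2 -0.0358, with a Y-linked term Itgb1 0.0140, and with the GC trend removed Cxcr4 0.0020, S1pr4 -0.0473 and Sphk2 -0.163. Leaving out 1 library gave ranges across 0 for Ccr7 (-0.0103 to 0.144), Cxcr4 (-0.161 to 0.0465), Cxcr5 (-0.226 to 0.116), Itgb1 (-0.143 to 0.247), Sphk2 (-0.0334 to 0.204), Rgs2 (-0.0377 to 0.146), Coro1a (-0.0952 to 0.0114), Rac2 (-0.0393 to 0.0789) and Fos (-0.0793 to 2.10). The cause was not tested. Depth limits Alcam and Plpp3 most, at a few CPM.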
